A study of Mus musculus with 67 samples.

Results

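The comparison was between 2 regions of the visceral endoderm of wild-type mouse embryos at embryonic day (E) 5.5. The labels name them VE_ExE and VE_Epi, read here as visceral endoderm over the extra-embryonic ectoderm (ExE) and over the epiblast (Epi), although the labels do not spell the names out. The members were all libraries of these labels from embryos that had not been cultured (in vivo), which gave 3 VE_ExE and 2 VE_Epi libraries, 5 of the 67 in the series. All genes of the deposited table entered the comparison, 15567 of 25006 after a filter on low values. Wild type is the only genotype in these groups, the labels name no agent for either, and both were dissected from the decidua of naturally mated females. The study used a mouse line with an EGFP reporter under the Pdgfra promoter to help isolate lineages, and cells were released with trypsin. Whether the reporter was used to take these regions is not stated, nor is where the border between them was set.

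The series follows the tissues of the mouse embryo from the blastocyst to E5.5 by Smart-seq2, a full-length RNA-seq method for very few cells. Each library was amplified from polyA RNA of about 10 to 100 cells. Values are TPM, the share of a library's transcripts that a gene holds after scaling for its length. VE of cultured E5.5 embryos (in vitro, 3 libraries) and Epi and ExE of uncultured E5.5 embryos (2 libraries each) are set beside the 5 libraries below where their levels bear on a result.

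The visceral endoderm is the epithelium that surrounds the epiblast and the extra-embryonic ectoderm after implantation. It takes up maternal nutrients, secretes carrier proteins, and signals to the tissues beneath it. Cells at the distal tip of its embryonic part begin to make secreted inhibitors of Nodal and WNT signals, then move to the future anterior side, and this distal and anterior visceral endoderm positions the head end of the body axis.

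The VE_ExE libraries were the more variable group. Over genes whose group mean was above 3 on the log2(TPM + 1) scale, their median SD between replicates was 0.54, the largest of the 23 groups, against 0.24 in VE_Epi. Pearson correlations across 15567 genes were 0.858, 0.859 and 0.883 among the VE_ExE libraries, 0.948 between the VE_Epi libraries and 0.873 to 0.884 between the groups, so VE_ExE libraries were no more like each other than like VE_Epi. Between 8423 and 8553 genes reached 1 TPM in VE_ExE, the fewest among the 12 VE, Epi and ExE libraries of E5.5 considered here, against 10231 and 10241 in VE_Epi. Actb took 9.66%, 15.4% and 14.6% of the TPM in VE_ExE replicates 1 to 3, against 9.89% and 10.4% in VE_Epi. The part of these differences between libraries in the results below was not tested.

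Differences were tested with limma on log2(TPM + 1) in 2 ways. One fit used all 67 libraries, which share 1 estimate of spread per gene (the all-library fit), and the other used the 5 libraries alone (the 5-library fit). Genes were called where the adjusted p lay under 0.05 and the groups differed by 1 or more on the log2 scale. Since the all-library fit borrows its spread from tighter groups, it understates that of VE_ExE, and both fits are given. Values of single libraries are in the order of their replicate numbers, and a log2 difference is VE_ExE minus VE_Epi ± standard error from the all-library fit.

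More genes were called lower than higher in VE_ExE. The all-library fit called 557 genes higher (3.58% of the 15567 tested) and 1983 lower (12.7%). The 5-library fit called 21 higher (0.135%) and 195 lower (1.25%), 216 genes in all (1.39%). In both fits 204 genes (1.31%) were called, 21 higher (0.135%) and 183 lower (1.18%). Without each of the 5 libraries in turn, the calls of 194 of the 557 and 830 of the 1983 remained. Library values did not overlap between the groups for 971 genes higher in VE_ExE (6.24%) and 2533 lower (16.3%). The split depended on scaling, since quantile normalization, which moved the median log2 difference of all genes to 0.10 against -0.06 without it, gave 897 genes higher and 1272 lower. Of the genes called lower in both fits, 144 of 183 were listed at 0 in all 3 VE_ExE libraries. Such genes have no spread within VE_ExE, so the 5-library fit calls them more readily than genes with a varying level there. Being called in both fits is therefore no ranking of support, and for low genes a listed 0 may be a missed transcript.

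**Figure D1:**
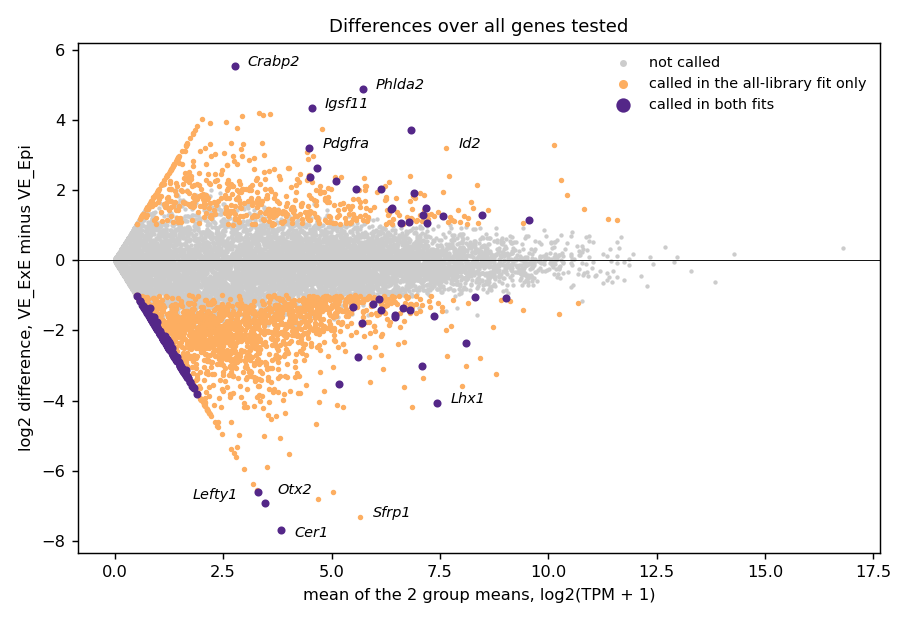
Log2 difference (VE_ExE minus VE_Epi, vertical) against the mean of the group means of log2(TPM + 1) (horizontal) for the 15567 genes tested. Purple marks the 204 genes called in both fits, orange those called in the all-library fit only and grey the rest; points on the lower left edge are listed at 0 in all VE_ExE libraries, where the difference is no measure of a fold.

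Genes of the distal and anterior visceral endoderm were the group most often called lower in VE_ExE among the lists examined. The lists were chosen with earlier results of these data known, so this rank is a description and no independent support. Of the 12 listed genes, 11 fell in VE_ExE and 0 rose (over all genes, 12.7% fell), and all 11 calls remained without each of the 5 libraries in turn. In the 5-library fit 4 of them were called, Cer1, Lefty1, Otx2 and Lhx1. Their median log2 difference was -5.06, or -3.72 over the 6 members not listed at 0 throughout a group, against -0.06 over all genes tested. The summed level of the list was 165 to 196 TPM in VE_ExE, against 2797 and 2448 TPM in VE_Epi.

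Among the secreted inhibitors of Nodal, Cer1 (chromosome 4, 82881751 to 82885148 on the minus strand, GRCm38 throughout), an extracellular antagonist that binds Nodal, was listed at 0 in all 3 VE_ExE libraries, against 198 and 209.8 TPM in VE_Epi. In pooled cells, fewer cells that express a gene and less RNA per cell cannot be told apart, here and below. The adjusted p of Cer1 was 3.9e-28 in the all-library fit and 0.019 in the 5-library fit. Lefty1 (chromosome 1, 180935022 to 180938400), a secreted Nodal inhibitor, was likewise listed at 0 in every VE_ExE library, against 92.0 and 100.3 TPM in VE_Epi (adjusted p = 4.4e-16, and 0.038 in the 5-library fit). Lefty2 is a close relative in sequence, so that the share of each in these reads is uncertain. It was listed at 0 in VE_ExE and at 0 and 1.30 TPM in VE_Epi.

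A gap of this kind was rare in the table. Of 2488 genes with at least 50 TPM in both VE_Epi libraries, 6 were listed at 0 in all 3 VE_ExE libraries. They were Cer1, Lefty1, Otx2, Fgf8, Pilra and Pilrb1. In the other direction, 0 of 2000 genes with at least 50 TPM in all VE_ExE libraries were listed at 0 in both VE_Epi libraries. The threshold of 50 TPM was chosen after the values were seen.

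Inhibitors and receptors of the WNT pathway followed. Sfrp1 (chromosome 8, 23411502 to 23449632), a secreted protein that binds WNT ligands, had 13.9, 0 and 3.24 TPM in VE_ExE, against 689 and 593 TPM in VE_Epi (log2 -7.33 ± 0.62, adjusted p = 1.2e-13). Sfrp5, of the same family, had 0.382, 0 and 1.27 TPM, against 116 and 64.6 TPM (log2 -5.90 ± 0.59, adjusted p = 3.5e-11). Both were far lower in every VE_ExE library, yet neither passed in the 5-library fit (adjusted p = 0.13 and 0.060). For each gene 1 VE_ExE value was 0. Shisa2, which holds back maturation of WNT and FGF receptors, was listed at 0 in VE_ExE, against 17.2 and 5.77 TPM in VE_Epi (adjusted p = 2.2e-06, and 0.11 in the 5-library fit). The receptor gene Fzd5 was listed at 0 in VE_ExE, against 19.5 and 28.7 TPM in VE_Epi (adjusted p = 1.2e-13, and 0.070 in the 5-library fit). Dkk1, an inhibitor of WNT co-receptors, was the exception of the list. It had 19, 22.9 and 42.2 TPM in VE_ExE, against 60.1 and 38.1 TPM in VE_Epi (log2 -0.83 ± 0.29, adjusted p = 0.035), below the minimum difference and with overlapping groups.

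The transcription factors of the list divided by how much remained in VE_ExE. Otx2 (chromosome 14, 48657677 to 48673819), a homeodomain factor needed for movement of the anterior visceral endoderm, was listed at 0 in all VE_ExE libraries, against 123 and 118 TPM in VE_Epi (adjusted p = 6.1e-18, and 0.032 in the 5-library fit). Gsc, a homeodomain factor induced by Nodal, was listed at 0 in VE_ExE as well, against 54.4 and 36.1 TPM (adjusted p = 2.9e-14, and 0.066 in the 5-library fit). Lhx1 (chromosome 11, 84518284 to 84525535), a LIM homeodomain factor, kept 43.5, 33.7 and 48.8 TPM in VE_ExE, against 754 and 671 TPM in VE_Epi (log2 -4.07 ± 0.34, adjusted p = 6.7e-14, and 0.012 in the 5-library fit). Hhex, a homeodomain factor that marks the distal tip, had 83.8, 40.4 and 21.4 TPM in VE_ExE, against 478 and 407 TPM in VE_Epi (log2 -3.37 ± 0.55, adjusted p = 5.2e-06, and 0.15 in the 5-library fit). Hesx1 (chromosome 14, 26994416 to 27002329), a homeodomain repressor of the anterior endoderm and forebrain, had 35.9, 68.0 and 69.2 TPM, against 197 and 175 TPM (log2 -1.73 ± 0.46, adjusted p = 0.0045). All VE_ExE libraries lay below both VE_Epi libraries for these 5 genes. The smallest of the differences, that of Hesx1, was not called in the 5-library fit (adjusted p = 0.18), with a pseudocount of 0.1 TPM (0.27) or with array weights (0.28).

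**Figure D2:**
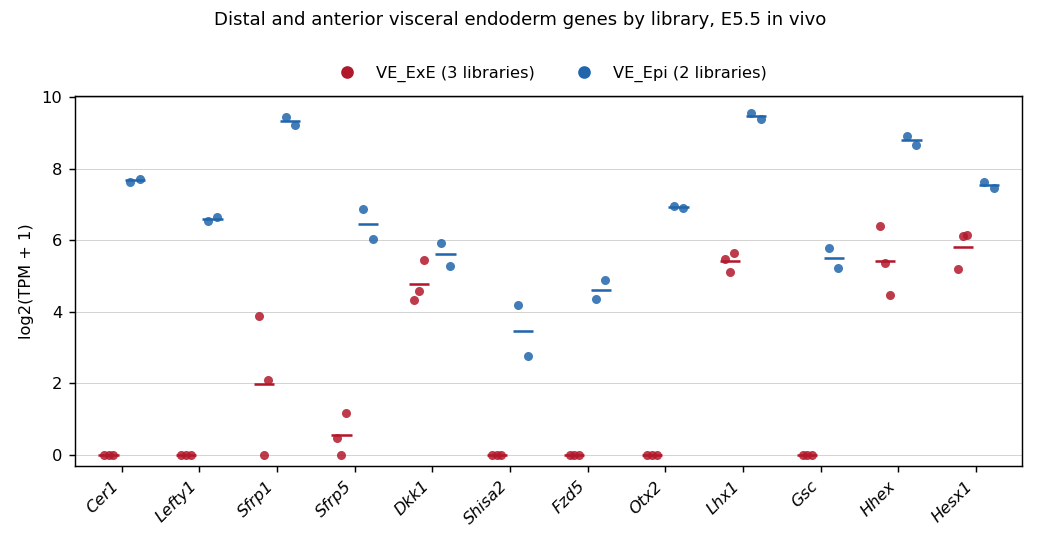
Levels of the 12 distal and anterior visceral endoderm genes as log2(TPM + 1), inhibitors and receptor first, then transcription factors. Points are libraries (VE_ExE red, left; VE_Epi blue, right) and bars are group means; 6 genes are listed at 0 in all 3 VE_ExE libraries and only Dkk1 overlaps between the groups.

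The proximal promoters of the 3 members called in both fits that have an entry in the promoter table are shown with that of Pdgfra, the gene of the reporter, which was called higher in VE_ExE in both fits. Each is 300 bases, from 250 before to 50 after the RefSeq transcription start on GRCm38.p6, written 5′ to 3′ on the strand of the gene. For Otx2 the most upstream of 4 listed starts was used. Capitals mark matches on either strand to TAATCC (the sequence that OTX and GSC homeodomains bind), AATNNACA (that of FOXH1, the DNA-binding partner of SMADs in Nodal signalling) or AGGTGT (a short T-box sequence).
Cer1, chr4:82885102-82885401, minus strand: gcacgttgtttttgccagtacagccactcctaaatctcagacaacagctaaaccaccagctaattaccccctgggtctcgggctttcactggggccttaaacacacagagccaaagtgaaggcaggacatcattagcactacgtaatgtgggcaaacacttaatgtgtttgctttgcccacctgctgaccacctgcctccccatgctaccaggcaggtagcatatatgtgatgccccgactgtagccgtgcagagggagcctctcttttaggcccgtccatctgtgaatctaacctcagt
Otx2, chr14:48667595-48667894, minus strand: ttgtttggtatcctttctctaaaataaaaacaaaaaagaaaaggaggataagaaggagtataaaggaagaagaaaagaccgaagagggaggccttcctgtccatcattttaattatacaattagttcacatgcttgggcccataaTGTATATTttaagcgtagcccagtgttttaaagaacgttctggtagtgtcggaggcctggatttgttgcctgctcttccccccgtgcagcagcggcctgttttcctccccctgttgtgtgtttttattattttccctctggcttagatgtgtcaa
Lhx1, chr11:84525485-84525784, minus strand: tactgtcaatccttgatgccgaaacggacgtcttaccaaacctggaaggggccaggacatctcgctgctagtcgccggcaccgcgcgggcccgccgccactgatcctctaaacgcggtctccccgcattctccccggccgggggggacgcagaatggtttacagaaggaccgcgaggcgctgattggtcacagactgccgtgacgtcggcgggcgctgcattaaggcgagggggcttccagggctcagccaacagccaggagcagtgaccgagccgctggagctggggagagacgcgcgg
Pdgfra, chr5:75152001-75152300, plus strand: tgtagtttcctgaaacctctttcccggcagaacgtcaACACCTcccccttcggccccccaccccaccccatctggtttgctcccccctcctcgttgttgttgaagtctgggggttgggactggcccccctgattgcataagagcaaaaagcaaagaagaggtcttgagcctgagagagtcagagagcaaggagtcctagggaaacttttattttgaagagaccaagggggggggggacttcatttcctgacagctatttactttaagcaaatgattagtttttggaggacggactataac
Otx2 held 1 AATNNACA match and Pdgfra 1 AGGTGT match, both on the reverse strand, and the windows of Cer1 and Lhx1 held 0 matches to these letters. Of 32817 promoters of this length, 7.06% held TAATCC, 12.2% AATNNACA and 13.7% AGGTGT. The matches describe these windows only and no binding was measured.

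Levels in cultured VE, which the labels do not divide by region, were set beside these genes. Otx2 (104 ± 18.3 TPM), Lhx1 (295 ± 35.2 TPM), Gsc (71.4 ± 14.7 TPM) and Sfrp1 (303 ± 11.1 TPM) lay above every VE_ExE library there (SD, n = 3). Cer1 (1.60 ± 0.675 TPM) and Lefty1 (8.74 ± 0.930 TPM) lay far below both VE_Epi libraries. Otx2 was also 168 TPM on average in Epi, the tissue under VE_Epi, where Cer1 averaged 0.588, Lefty1 0.163, Gsc 0 and Lhx1 6.51 TPM over 2 libraries.

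Genes known for the extra-embryonic part of the visceral endoderm were mostly not called. Of 6 such genes 0 rose and 1 fell in VE_ExE (3.58% and 12.7% over all genes). However, 2 were called higher without VE_ExE replicate 1 and 2 with quantile normalization. The gene that fell was Bmp2, a secreted ligand of the BMP pathway, with 0, 3.59 and 10.9 TPM in VE_ExE, against 32.0 and 23.3 TPM in VE_Epi (log2 -2.90 ± 0.49, adjusted p = 1.1e-05, and 0.61 in the 5-library fit). Rhox5, an X-linked homeobox gene of extra-embryonic tissues, had 1993, 2524 and 2572 TPM in VE_ExE, against 1507 and 1482 TPM in VE_Epi (log2 0.65 ± 0.22, adjusted p = 0.028), short of the minimum difference although the groups did not overlap. Rhox5 held most of the list's sum, which was 2084, 2641 and 2653 TPM in VE_ExE and 1617 and 1547 TPM in VE_Epi. In ExE the list summed to 3982 and 3977 TPM, with 4 of its members listed at 0 in every library. Hnf4a, a nuclear receptor needed for secretion by this epithelium, had 56.1, 29.8 and 6.05 TPM, against 33.8 and 17.2 TPM. Its values overlapped between the groups and it was not called, nor were the hedgehog ligand Ihh (0.656, 10.7 and 16.8 TPM, against 3.10 and 2.43 TPM) and the vascular growth factor Vegfa (2.86, 15.1 and 9.99 TPM, against 3.73 and 3.79 TPM).

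Core markers showed visceral endoderm in both regions. The endocytic adaptor Dab2 had 833, 849 and 825 TPM in VE_ExE, against 879.9 and 768 TPM in VE_Epi. The membrane anchor of the cubilin receptor, Amn, had 575, 299 and 253 TPM, against 393 and 353 TPM, and transthyretin (Ttr) had 792, 701 and 755 TPM, against 714 and 923 TPM. The GATA factors of endoderm were alike in range, Gata4 with 49.1, 34.5 and 54.4 TPM against 34.8 and 34.9 TPM, and Gata6 with 23.8, 54.9 and 46.8 TPM against 33.3 and 34.1 TPM. These 5 genes overlapped between the groups and were not called.

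Within the identity list of 14 genes, 3 rose and 2 fell in VE_ExE (3.58% and 12.7% over all genes), with a median log2 difference of 0.12. Library values did not overlap for 4 members higher and 2 lower (6.24% and 16.3% over all genes). The summed level of the list was lower in every VE_ExE library, at 4319, 3373 and 3543 TPM, against 4945 and 5090 TPM in VE_Epi. It was 43.7 and 68.7 TPM in Epi and 12.4 and 24.7 TPM in ExE. Pdgfra, which encodes a receptor for platelet-derived growth factor and whose promoter drives the reporter, had 70.3, 83.7 and 51.1 TPM in VE_ExE, against 6.87 and 5.90 TPM in VE_Epi (log2 3.21 ± 0.36, adjusted p = 1.3e-09, and 0.033 in the 5-library fit). Every VE_ExE library lay well above both VE_Epi libraries. Cultured VE had 11.6 ± 0.110 TPM (SD, n = 3). Whether cells were taken by reporter brightness is not stated, and the part of isolation in this difference was not tested.

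The SOX factors of endoderm also rose in VE_ExE. Sox17 had 49.9, 17.8 and 43.1 TPM, against 9.96 and 10.8 TPM (log2 1.62 ± 0.38, adjusted p = 0.0011), and Sox7 had 33.6, 28.3 and 37.6 TPM, against 10.3 and 10.1 TPM (log2 1.60 ± 0.43, adjusted p = 0.0050). The groups did not overlap for either gene, but both calls were absent from the 5-library fit (adjusted p = 0.41 and 0.071). Foxa2, a forkhead factor upstream of the anterior genes, had 6.38, 19.2 and 22.9 TPM in VE_ExE, against 41.9 and 41.6 TPM in VE_Epi (log2 -1.49 ± 0.45, adjusted p = 0.014). This call did not survive without VE_Epi replicate 1 (adjusted p = 0.075), VE_Epi replicate 2 (0.071) or VE_ExE replicate 1 (0.14). Alpha-fetoprotein (Afp) had 83.9, 16.6 and 2.15 TPM, against 97.8 and 77.4 TPM (log2 -2.39 ± 0.63, adjusted p = 0.0037). The groups overlapped, and without VE_ExE replicate 3 the difference was -1.19 and not called (adjusted p = 0.12).

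Among 18 secreted proteins of the visceral endoderm, 1 rose and 5 fell in VE_ExE, where 3.58% of all genes rose and 12.7% fell. Of these calls 2, both lower, remained without each library in turn. Library values did not overlap for 7 members higher in VE_ExE and 5 lower (6.24% and 16.3% over all genes). The median log2 difference of the list was 0.0052. Rbp4, the plasma carrier of retinol, had 182, 42.5 and 110.4 TPM in VE_ExE, against 834 and 717 TPM in VE_Epi (log2 -3.01 ± 0.49, adjusted p = 5.0e-06, and 0.23 in the 5-library fit). Transferrin (Trf), the iron carrier, had 195, 22.9 and 3.27 TPM, against 511 and 472 TPM (log2 -4.18 ± 0.86, adjusted p = 0.00020, and 0.60 in the 5-library fit). Neither overlapped, although the VE_ExE libraries differed widely from each other for Trf. Apoc2, an apolipoprotein that activates lipoprotein lipase, was the member that rose, with 5348, 4160 and 4309 TPM in VE_ExE, against 2008 and 2130 TPM in VE_Epi (log2 1.15 ± 0.32, adjusted p = 0.0059). This call did not survive without VE_Epi replicate 1 (adjusted p = 0.054) and was absent from the 5-library fit (0.20). The most abundant member, Apoe, had 8815, 6661 and 7101 TPM, against 5576 and 5954 TPM, and was not called (log2 0.37 ± 0.18, adjusted p = 0.15).

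The machinery of nutrient uptake had no member that fell in VE_ExE. Of 17 genes of endocytosis and the lysosome 3 rose and 0 fell, where 3.58% of all genes rose and 12.7% fell. The values of 8 did not overlap, all higher in VE_ExE, where 6.24% of all genes did so, with a median log2 difference of 0.35. Cathepsin D (Ctsd), a lysosomal protease, had 227, 227 and 275 TPM in VE_ExE, against 90.1 and 82.1 TPM in VE_Epi (log2 1.48 ± 0.26, adjusted p = 2.5e-05, and 0.034 in the 5-library fit). Megalin (Lrp2), the large receptor of the apical membrane, had 142, 135 and 142 TPM, against 72.5 and 60.7 TPM (log2 1.06 ± 0.28, adjusted p = 0.0033, and 0.045 in the 5-library fit). Its call was lost without VE_Epi replicate 2 (adjusted p = 0.060). Cubilin (Cubn), the partner receptor of Amn, had 210.1, 237 and 289 TPM, against 132 and 118 TPM (log2 0.96 ± 0.36, adjusted p = 0.049), just under the minimum difference. The call of the lysosomal regulator Tfeb did not remain without VE_Epi replicate 1 (adjusted p = 0.75) or VE_ExE replicate 2 (0.14).

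Genes of the Nodal pathway were called lower only. Of 17 tested, 0 rose and 7 fell in VE_ExE, where 3.58% of all genes rose and 12.7% fell. All 7 calls remained without each library in turn. The 5-library fit called 2 of them, Cer1 and Lefty1, which are also in the distal and anterior list. The median log2 difference of the list was -0.93, against -0.06 over all genes tested. Over the 8 members not listed at 0 throughout a group it was -0.16. The ligand Nodal had 0, 0.0888 and 3.17 TPM in VE_ExE, against 18.2 and 15.3 TPM in VE_Epi (log2 -3.42 ± 0.49, adjusted p = 3.9e-07, and 0.34 in the 5-library fit). The ligand Gdf3 was listed at 0 in VE_ExE, against 5.63 and 10.3 TPM (adjusted p = 9.3e-09). Foxh1, the transcription factor through which SMADs act on Nodal targets, was listed at 0 in VE_ExE, against 42.0 and 39.2 TPM in VE_Epi (adjusted p = 3.5e-19, and 0.062 in the 5-library fit). Eomes, a T-box factor induced by Nodal in visceral endoderm, was listed with ExE and is not among the 17. It had 8.02, 12.1 and 9.29 TPM in VE_ExE, against 138 and 106 TPM in VE_Epi (log2 -3.52 ± 0.27, adjusted p = 5.8e-15, and 0.025 in the 5-library fit). The ligands, effector and target named here were all below VE_Epi in every VE_ExE library.

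BMP signalling genes moved in both directions. Of 18 tested 2 rose and 3 fell in VE_ExE (3.58% and 12.7% over all genes). Id2, a helix-loop-helix inhibitor and target of BMP signals, had 306, 878 and 802 TPM in VE_ExE, against 72.4 and 57.7 TPM in VE_Epi (log2 3.19 ± 0.24, adjusted p = 2.8e-15, and 0.13 in the 5-library fit). Id3, of the same family, had 243, 131 and 139.8 TPM, against 35.8 and 62.3 TPM (log2 1.78 ± 0.31, adjusted p = 1.3e-05, and 0.23 in the 5-library fit). Id1 had 86.9, 106 and 66.4 TPM, against 49.3 and 36.8 TPM (log2 0.98 ± 0.35, adjusted p = 0.040), just under the minimum difference. All 3 ID genes were higher in every VE_ExE library than in either VE_Epi library. Id2 was also abundant in ExE itself, at 1523 TPM on average over 2 libraries, whereas Id3 was at 5.30 TPM there.

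Besides Bmp2, the BMP antagonist Noggin (Nog) was lower. It was listed at 0 in VE_ExE, against 3.40 and 4.07 TPM in VE_Epi (adjusted p = 1.8e-10, and 0.014 in the 5-library fit). At so low a level a listed 0 may be a missed transcript. The call of the receptor effector Smad5 (log2 -1.24 ± 0.45, adjusted p = 0.044) was lost without VE_Epi replicate 2 (adjusted p = 0.71), VE_ExE replicate 1 (0.22) or VE_ExE replicate 2 (0.23).

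The WNT list held 0 genes that rose and 12 of 26 that fell in VE_ExE (3.58% and 12.7% over all genes). Of the 12, 9 remained without each library in turn and 1, Sp5, a low gene listed at 0 throughout VE_ExE, was called in the 5-library fit. The median log2 difference of the list was -0.95. Beyond the inhibitors above, Porcn, the enzyme that lipidates WNT ligands for secretion, had 0, 4.67 and 0 TPM in VE_ExE, against 24.0 and 22.8 TPM in VE_Epi (log2 -3.77 ± 0.56, adjusted p = 6.4e-07, and 0.37 in the 5-library fit). The receptor Fzd7 had 1.07, 2.91 and 1.70 TPM, against 7.50 and 9.61 TPM (log2 -1.76 ± 0.38, adjusted p = 0.00041). Tcf7l2, a nuclear effector and the most abundant member, had 448, 891 and 922 TPM, against 2196 and 1955 TPM (log2 -1.53 ± 0.35, adjusted p = 0.00084, and 0.28 in the 5-library fit). The target gene Sp5 was listed at 0 in VE_ExE, against 4.79 and 5.56 TPM (adjusted p = 3.6e-06, and 0.019 in the 5-library fit). The enzyme, receptor, effector and target genes named here were lower in every VE_ExE library. Over the list the groups did not overlap for 13 genes lower and 1 higher (16.3% and 6.24% over all genes). The calls of 3 members were lost in at least 1 of the fits that left out a library. That of Tcf7l1 (log2 -1.30) was lost without VE_Epi replicate 1 (adjusted p = 0.12), VE_Epi replicate 2 (0.063) or VE_ExE replicate 1 (0.14), that of Wnt5a (log2 -1.07) without VE_Epi replicate 1 (0.086), and that of Wnt11 (log2 -1.67) without VE_Epi replicate 2 (0.22), VE_ExE replicate 1 (0.24) or VE_ExE replicate 3 (0.082).

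In the FGF list the ligands that were called fell, while receptors were called in both directions. Of 19 genes 3 rose and 6 fell in VE_ExE (3.58% and 12.7% over all genes). Without each library in turn, 2 and 6 of these calls remained. The ligand Fgf8 was listed at 0 in VE_ExE, against 58.4 and 114 TPM in VE_Epi (adjusted p = 8.3e-13, and 0.053 in the 5-library fit). The ligand Fgf5 had 33.2, 0 and 16.3 TPM, against 137 and 154 TPM (log2 -4.13 ± 0.55, adjusted p = 5.5e-08), and its difference was -2.59 without VE_ExE replicate 2. Fgf10 had 0.405, 14.7 and 10.7 TPM, against 39.6 and 38.7 TPM (log2 -2.66 ± 0.48, adjusted p = 2.6e-05), with a difference of -1.56 without VE_ExE replicate 1. No VE_ExE library reached the VE_Epi level for any of the 3 ligands.

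Receptor genes were split. Klb, the co-receptor for endocrine FGFs, had 50.7, 76.2 and 61.3 TPM in VE_ExE, against 3.92 and 10.4 TPM in VE_Epi (log2 3.07 ± 0.36, adjusted p = 3.1e-09, and 0.095 in the 5-library fit). Fgfr3 had 4.92, 5.77 and 10.2 TPM and was listed at 0 in VE_Epi (adjusted p = 2.3e-12, and 0.19 in the 5-library fit). Fgfr4 had 1.90, 0 and 2.65 TPM, against 17.3 and 11.2 TPM (log2 -2.77 ± 0.46, adjusted p = 6.0e-06). The call of Fgfr2 (log2 1.48 ± 0.49, adjusted p = 0.024) was lost without VE_Epi replicate 2 (adjusted p = 0.31) or VE_ExE replicate 1 (0.15). The feedback inhibitor Spry4 fell, with 14.8, 13.3 and 26.2 TPM in VE_ExE, against 59.3 and 46.8 TPM in VE_Epi (log2 -1.55 ± 0.37, adjusted p = 0.0016, and 0.24 in the 5-library fit).

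**Figure D3:**
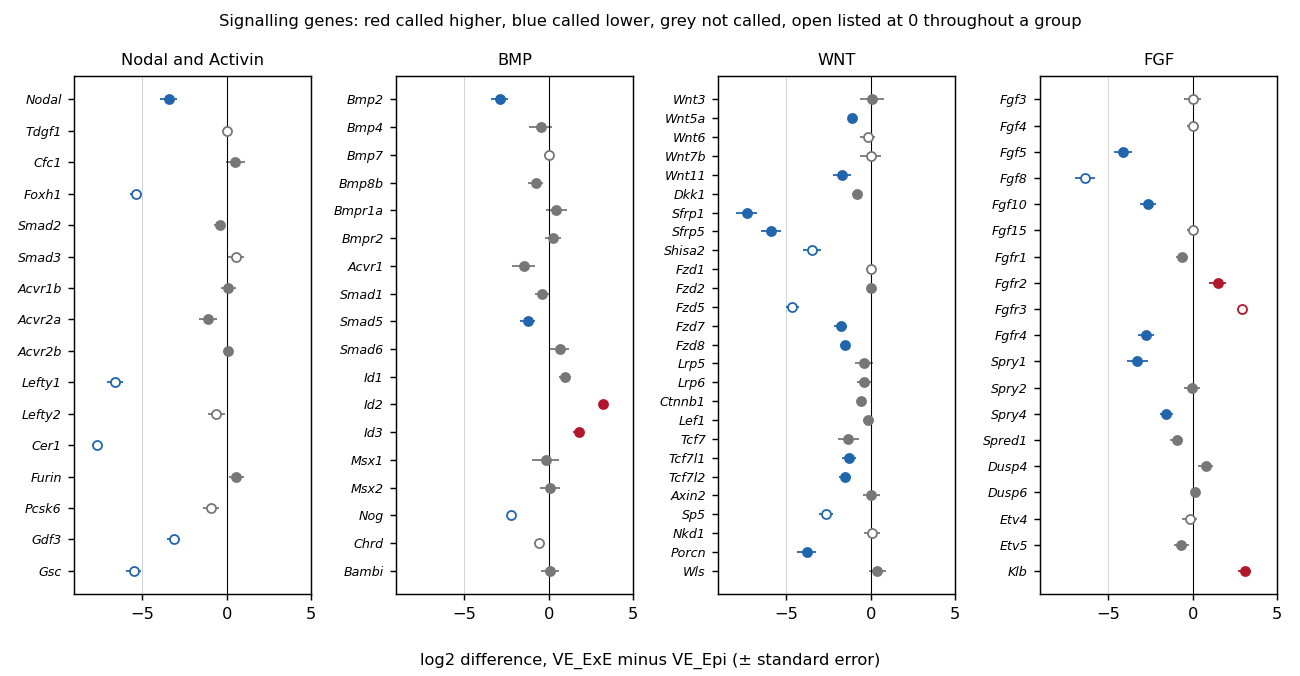
Log2 differences, VE_ExE minus VE_Epi, with the standard error of the all-library fit, for genes of the Nodal, BMP, WNT and FGF lists. Red marks genes called higher, blue genes called lower and grey the rest; open symbols are listed at 0 throughout at least 1 group, where the value is no fold. In the Nodal and WNT lists 0 genes were called higher, against 2 in the BMP and 3 in the FGF list.

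The largest differences upward were found in 12 genes outside the signalling lists. Crabp2 (chromosome 3, 87948666 to 87953376), a carrier of retinoic acid in the cytoplasm, had 39.6, 47.1 and 49.98 TPM in VE_ExE and was listed at 0 in both VE_Epi libraries (adjusted p = 1.4e-10, and 0.025 in the 5-library fit). Phlda2 (chromosome 7, 143501545 to 143503150), an imprinted gene that restrains placental growth, had 248, 303 and 302 TPM, against 4.78 and 15.4 TPM (log2 4.87 ± 0.36, adjusted p = 1.1e-15, and 0.049 in the 5-library fit). Igsf11, a cell adhesion protein of the immunoglobulin family, had 69.8, 122 and 131 TPM, against 4.07 and 4.38 TPM (log2 4.32 ± 0.29, adjusted p = 6.0e-17, and 0.029 in the 5-library fit). Each was far above VE_Epi in all 3 VE_ExE libraries.

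These 3 genes differed in whether a neighbouring tissue expressed them. Phlda2 averaged 1932 TPM in ExE over 2 libraries, more than in VE_ExE, while Crabp2 averaged 2.76 TPM and Igsf11 0.442 TPM there. Crabp2 averaged 76.0 TPM in Epi. Of the 13 genes of the ExE list 2 rose, Fgfr2 among them, and 3 fell in VE_ExE (3.58% and 12.7% over all genes). Library values did not overlap for 3 upward and 2 downward (6.24% and 16.3% over all genes). Over the 9 members not listed at 0 throughout a group, the median log2 difference was 0.50. Neither upward call remained without each library in turn. The ExE factors Cdx2 and Esrrb and the ligand gene Wnt7b were the 3 members listed at 0 in all 3 VE_ExE libraries. Elf5 was at 0.309, 0.659 and 0.423 TPM, against 43.5 TPM on average in ExE.

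Other genes that rose strongly were called in the all-library fit only. Ece1, an endothelin-converting protease, had 82.4, 98.3 and 121 TPM in VE_ExE, against 11.3 and 3.59 TPM in VE_Epi (log2 3.74 ± 0.42, adjusted p = 7.8e-10, and 0.078 in the 5-library fit). Cdkn1c, an imprinted inhibitor of the cell cycle, had 68.5, 32.8 and 37.7 TPM, against 4.07 and 0.281 TPM (log2 4.14 ± 0.54, adjusted p = 4.7e-08, and 0.15 in the 5-library fit). ExE itself held 43.7 and 31.2 TPM of Cdkn1c. Runx3, a RUNX family factor, had 11.8, 14.7 and 19.9 TPM and was listed at 0 in VE_Epi (adjusted p = 7.7e-16). Eps8l3, a relative of the actin regulator EPS8, had 24.2, 27.8 and 43.9 TPM, against 0.0624 and 2.24 TPM (log2 4.11 ± 0.26, adjusted p = 2.7e-18). None of these 4 overlapped between the groups. The remaining members of the 12 that led by size were Akr1b8, Plk3, Usp51, Acot3 and Mbl2, all with adjusted p of 0.21 to 0.34 in the 5-library fit. For Plk3 the difference of 4.15 was 2.64 without VE_Epi replicate 1.

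Of the 21 genes called higher in both fits, 4 more were chosen for mention after their values were seen. Fabp1, a fatty acid carrier of absorptive epithelia, had 406, 325 and 519 TPM in VE_ExE, against 39.7 and 23.7 TPM in VE_Epi (log2 3.70 ± 0.41, adjusted p = 4.7e-10, and 0.036 in the 5-library fit). The water and glycerol channel Aqp3 had 60.5, 56.7 and 71.6 TPM, against 8.72 and 9.83 TPM (log2 2.63 ± 0.47, adjusted p = 2.5e-05, and 0.021 in the 5-library fit). Atp1b1, a subunit of the sodium pump, had 189, 235 and 281 TPM, against 64.0 and 56.9 TPM (log2 1.92 ± 0.26, adjusted p = 6.2e-08, and 0.049 in the 5-library fit). The zinc-finger factor Klf6 had 206, 201 and 242 TPM, against 84.0 and 90.4 TPM (log2 1.29 ± 0.18, adjusted p = 1.2e-07, and 0.037 in the 5-library fit). All 4 kept their calls without each library in turn and did not overlap. In ExE and Epi, Fabp1 was listed at 0.

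**Figure D4:**
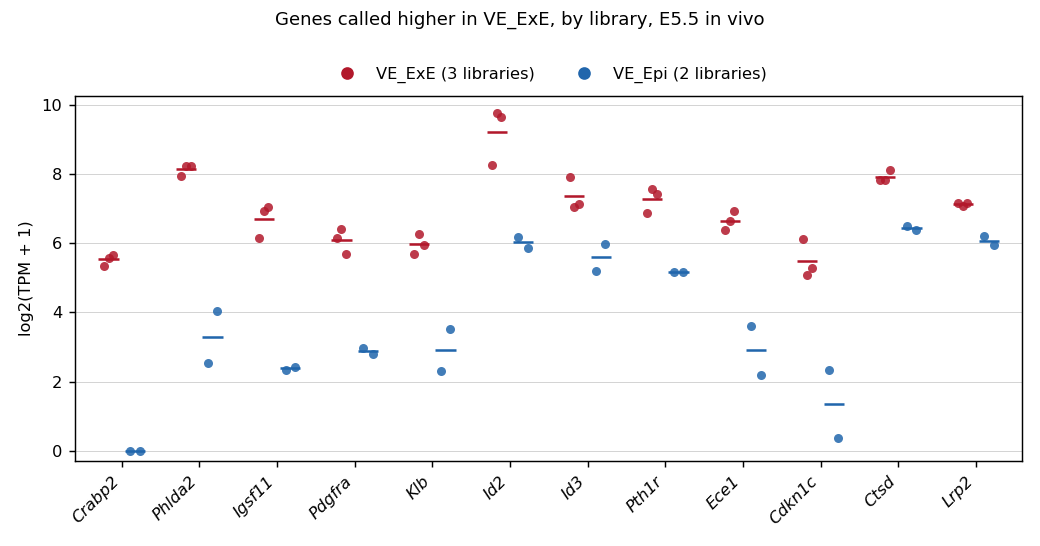
Levels of 12 genes called higher in VE_ExE as log2(TPM + 1). Points are libraries (VE_ExE red, left; VE_Epi blue, right) and bars are group means; the 3 VE_ExE libraries lie above both VE_Epi libraries for every gene shown, and Crabp2 is listed at 0 in VE_Epi.

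The largest differences downward, beside those of the anterior genes and Fgf8, were in 6 other genes. Efna5, a membrane-anchored ligand of Eph receptors, had 0, 13.6 and 0 TPM in VE_ExE, against 322 and 232 TPM in VE_Epi (log2 -6.81 ± 0.60, adjusted p = 5.4e-13, and 0.20 in the 5-library fit). Cd24a, a glycoprotein of epithelial surfaces, had 0, 8.41 and 2.91 TPM, against 345 and 297 TPM (log2 -6.59 ± 0.42, adjusted p = 3.7e-18, and 0.11 in the 5-library fit). The paired receptors Pilra, Pilrb1 and Pilrb2 lie side by side on chromosome 5 and are close in sequence, so their separate levels are uncertain. All 3 were listed at 0 in VE_ExE, against 41.7 to 134 TPM in VE_Epi. Mest, an imprinted gene of the hydrolase family, had 12.4, 0.0361 and 0 TPM, against 109.7 and 109 TPM (log2 -5.52 ± 0.56, adjusted p = 4.1e-11, and 0.28 in the 5-library fit). In Epi, Efna5 had 96.6 and 99.2 TPM and Mest 77.5 and 35.1 TPM. In ExE, Efna5 had 2.37 and 0.0525 TPM and Mest 67.1 and 60.1 TPM.

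Cd59a and Ssbp3 kept a level in VE_ExE and were called lower in both fits, and they too were chosen after their values were seen. Cd59a, an inhibitor of complement, had 52.7, 39.3 and 50.9 TPM, against 371 and 401 TPM (log2 -3.0 ± 0.47, adjusted p = 2.0e-06, and 0.016 in the 5-library fit). Ssbp3, a co-factor that binds LIM homeodomain complexes such as those of LHX1, had 115, 108 and 143 TPM in VE_ExE, against 708 and 549 TPM in VE_Epi (log2 -2.36 ± 0.31, adjusted p = 3.5e-08, and 0.031 in the 5-library fit). Amot, a protein of polarity and Hippo signalling known for its part in visceral endoderm movement, was called in the all-library fit only. It had 195, 239.5 and 217 TPM, against 1060 and 628 TPM (log2 -1.91 ± 0.34, adjusted p = 1.9e-05, and 0.085 in the 5-library fit). All 3 were lower in every VE_ExE library than in either VE_Epi library.

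Some genes of epithelial junctions and keratins were lower in VE_ExE. Of 20 tested 0 rose and 6 fell, where 3.58% of all genes rose and 12.7% fell, 3 of them also without each library in turn, with a median log2 difference of -0.80. Cdh2, the neural cadherin, had 1.65, 0.865 and 0 TPM in VE_ExE, against 23.4 and 22.8 TPM in VE_Epi (log2 -3.82 ± 0.37, adjusted p = 1.4e-11). The epithelial adhesion molecule Epcam had 188, 143 and 229.8 TPM, against 402 and 460.1 TPM (log2 -1.22 ± 0.14, adjusted p = 2.1e-09). Krt19, a keratin of simple epithelia, had 8.45, 0.688 and 0.631 TPM, against 25.3 and 33.7 TPM (log2 -3.35 ± 0.59, adjusted p = 2.0e-05). These 3 did not overlap between the groups and none was called in the 5-library fit (adjusted p = 0.16 to 0.40). Of the 22 actin genes and actin-binding genes, 1 rose and 3 fell in VE_ExE (3.58% and 12.7% over all genes). Library values did not overlap for 11 of them lower and 1 higher (16.3% and 6.24% over all genes). The call that remained without each library was the tropomyosin Tpm1. It had 39.2, 35.5 and 58.8 TPM in VE_ExE, against 137 and 163 TPM in VE_Epi (log2 -1.76 ± 0.14, adjusted p = 1.4e-14).

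Parietal endoderm, the sister lineage that lays down Reichert's membrane, shares some genes with the higher group. Of 15 parietal markers 4 rose and 2 fell in VE_ExE (3.58% and 12.7% over all genes). The summed level of the 15 was 2475, 4902 and 5083 TPM in VE_ExE, against 2061 and 1852 TPM in VE_Epi. Sparc, a matrix glycoprotein, made up most of that sum, with 1779, 3778 and 3971 TPM, against 1187 and 984 TPM (log2 1.47 ± 0.18, adjusted p = 1.1e-08, and 0.38 in the 5-library fit). Pth1r, a hormone receptor of parietal endoderm, had 115, 188 and 173 TPM, against 35.2 and 35.0 TPM (log2 2.11 ± 0.38, adjusted p = 2.8e-05, and 0.060 in the 5-library fit). Both were higher in every VE_ExE library. The parietal markers Thbd, Vim and Stra6 were listed at 0 in all 3 VE_ExE libraries and in 1 of the 2 VE_Epi libraries, and the lineage's collagen Col4a1 overlapped between the groups (125, 213 and 223 TPM, against 128 and 102 TPM). The part of parietal cells in these differences was not tested.

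Markers of the tissues beneath were summed in both regions. The ExE list summed to 139.6, 49.6 and 85.1 TPM in VE_ExE, against 229.2 and 180.5 TPM in VE_Epi, and to 1419 and 1376 TPM in ExE itself. Eomes held most of the VE_Epi sum. The epiblast list summed to 1734, 1637 and 1897 TPM in VE_ExE, against 1805 and 1977 TPM in VE_Epi and 7849 and 7535 TPM in Epi. Dppa5a, a gene of pluripotent cells, carried most of these sums in VE, with 1428, 1419 and 1652 TPM, against 1084 and 1319 TPM, whereas Sox2, Fgf4 and Tdgf1 were listed at 0 in all 5 libraries. Of the 14 genes of the epiblast list 4 fell in VE_ExE, among them Fgf5, Utf1 and Gdf3, and 1, Pou3f1, rose. Over all genes 12.7% fell and 3.58% rose. Utf1 had 50.7, 26.1 and 66.9 TPM in VE_ExE, against 249.6 and 210.4 TPM in VE_Epi (log2 -2.33 ± 0.18, adjusted p = 9.7e-15). Of the tested markers of giant cells (7), uterine stroma (3) and blood (4), 0 were called.

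**Figure D5:**
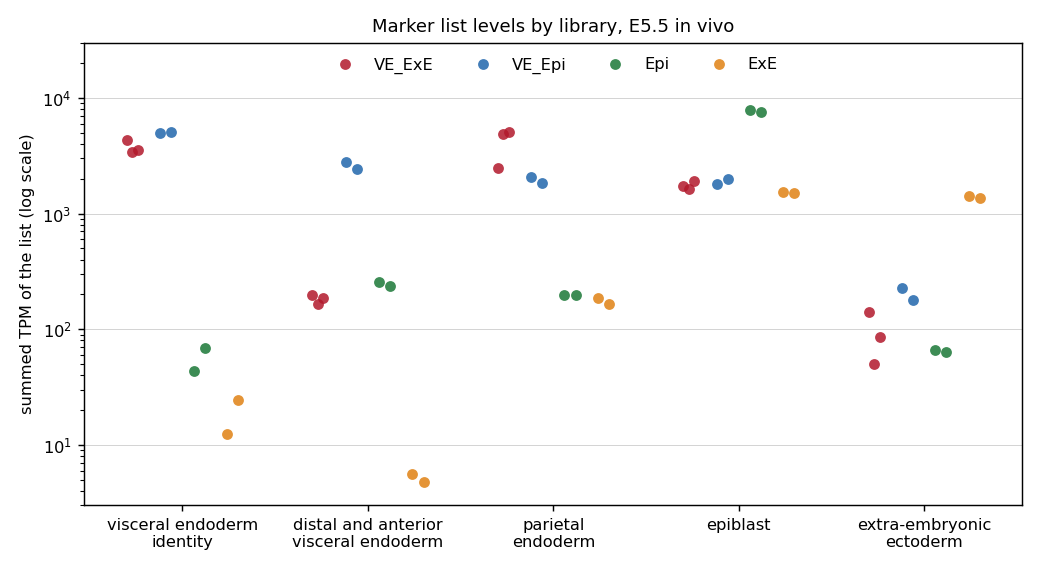
Summed TPM of 5 marker lists (vertical, log scale) in each library of VE_ExE, VE_Epi, Epi and ExE of uncultured E5.5 embryos. Both VE groups lie far above Epi and ExE for visceral endoderm identity; the distal and anterior list is 165 to 196 TPM in VE_ExE, against 2797 and 2448 TPM in VE_Epi, and the parietal list is highest in VE_ExE.

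Lists of metabolism, the cell cycle and stress held calls in both directions. Over all genes tested 3.58% rose and 12.7% fell in VE_ExE, and several counts below lie near these shares. Of 20 cholesterol synthesis genes 4 rose and 2 fell in VE_ExE, and the calls that remained without each library in turn were Cyp51, with 27.1, 49.2 and 88.5 TPM, against 12.6 and 10.5 TPM (log2 2.00 ± 0.33, adjusted p = 6.4e-06), and Fdft1, with 95.9, 57.3 and 111 TPM, against 29.3 and 40.1 TPM (log2 1.28 ± 0.20, adjusted p = 2.0e-06). Both are enzymes of sterol synthesis, and neither was called in the 5-library fit (adjusted p = 0.32 for each). Of 17 mitosis genes 0 rose and 3 fell, of which Plk1, a mitotic kinase, remained without each library (156, 101 and 101 TPM, against 341 and 258 TPM; log2 -1.34 ± 0.19, adjusted p = 2.5e-07, and 0.18 in the 5-library fit). Of 20 Polycomb genes 2 fell, of which Pcgf1, a subunit of a repressive complex, was listed at 0 in VE_ExE, against 14.0 and 15.7 TPM in VE_Epi (adjusted p = 3.2e-15, and 0.052 in the 5-library fit). The call of the other, Cbx2, was lost without VE_Epi replicate 1 (adjusted p = 0.072). Of 16 immediate early and heat shock genes 2 rose, Fos (93.6, 25.4 and 56.6 TPM, against 10.7 and 14.1 TPM; log2 1.98 ± 0.39, adjusted p = 0.00011) and Egr1, which encode immediate early transcription factors. The difference of Egr1 was 2.16, or 1.43 without VE_Epi replicate 1. Of 12 p53 target genes 0 rose and 5 fell, but 2 of these calls remained without each library in turn and 0 were made in the 5-library fit. Of 16 glycolysis genes 1 rose and 1 fell, and of 10 hypoxia genes 0 were called in either limma fit. Of 16 planar polarity genes 3 fell and 0 rose, of 15 basement membrane genes 2 rose and 2 fell, of 12 iron and metal genes 2 fell and 0 rose, and of 10 microvillus genes 1 rose and 1 fell. In those 4 lists the calls that remained without each library were Amot, the integrin Itga6, the matrix linker Nid1 and Trf, all lower in VE_ExE.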

How the data were processed

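Polyadenylated RNA was sequenced by Smart-seq2, per the series' design text, with 17 cycles of cDNA amplification, per the labels' protocols. TPM values per gene are the authors' own, deposited as 1 table of 67 libraries. HISAT2 2.2.1, StringTie 2.2.1, Cufflinks and the mm10 build are named in the submitters' processing notes, with no role given there for each. TPM keeps no sequencing depth, so no counting error could be given, and the chance of missing a low transcript is unknown per library.

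Differences were computed on log2(TPM + 1) with limma 3.58.1 in R 4.3.3. A gene stayed in where 3 or more of the 67 libraries reached 1 TPM (15567 of 25006). Group means of 23 groups were fitted, variances were moderated with a trend, and p-values were adjusted over all kept genes by the Benjamini-Hochberg method. A fold on this scale understates changes of low genes. Tables and plots were made with Python 3.11.15, pandas 2.3.3 and matplotlib 3.10.9, and positions come from GENCODE annotation of GRCm38. The labels call the libraries biological replicates, but no label ties one to an embryo, so p-values measure the spread between these libraries only. With 3 against 2 libraries, an exact permutation test of a single gene cannot go below p = 0.1. On simulated data for this comparison with 15567 genes, the all-library fit recovered 65% of genes changed by 1.5 and 96% of those changed by 3 on the log2 scale, and 7.47% of its calls were false. The simulation gave all groups equal spread, unlike the wider spread of VE_ExE. Its changed genes had a VE_Epi mean above 3 on the log2(TPM + 1) scale, so recovery of lower genes was not measured.

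The regions, gene lists and rules were chosen with earlier results of these data known. Genes were named by rule: Cer1 and Hesx1, in each list the called members of largest difference (up to 3 each way) and the most abundant uncalled ones (up to 2), the leading 12 calls each way by size of difference with non-overlapping libraries and a mean of at least 10 TPM in the higher group, the signalling genes by role, and members of the distal and anterior and of the extra-embryonic lists. A few genes are counted in their lists but not reported here by name. Alternatives were a pseudocount of 0.1 TPM, other filters, quantile and median-ratio scaling, array weights, a replicate block, the 5 libraries alone and leaving out each library. TPM rescaled without Actb and median-ratio scaling within the 5 libraries were added after seeing the data.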

Additional observations from a re-analysis of the deposited data

How the results depend on the processing

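The counts of calls (2540 in all, 557 higher and 1983 lower in VE_ExE, and 100 among members of the gene lists) fell with array weights to 791, 123, 668 and 59, and with the 5 libraries alone to 216, 21, 195 and 11. Of those calls, 783 with array weights and 204 with the 5 libraries alone were also called in the all-library fit. Quantile normalization gave 897 higher and 1272 lower. Leaving out each library in turn gave 2114 to 3043 calls, 432 to 724 higher and 1672 to 2320 lower, and 84 to 110 among list members. Other settings kept the counts within 1.5 times.

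Same-numbered libraries showed no shared deviation (correlations of 0.0065 and 0.0015). The 2 VE_Epi libraries deviate from their mean as mirror images, so this check cannot decide whether replicate numbers pair the samples. With the replicate block, 781 genes were called higher and 2186 lower, and VE_ExE replicate 3 has no partner of its number. Over all genes, calls that reversed in direction numbered 7 with quantile normalization, 4 and 5 without VE_Epi replicates 1 and 2, and 1 and 3 without VE_ExE replicates 1 and 2. Of the genes named here, only uncalled ones reversed. Hnf4a (-0.12) was 0.060 with quantile normalization, 0.020 with median-ratio scaling, 0.74 with the replicate block and -0.77 to 0.74 without single libraries. Amn (-0.08) was 0.067 and 0.041 with median-ratio scaling over all and over the 5 libraries, 0.15 with the block and -0.44 to 0.15 without single libraries. Ttr (-0.12) was 0.033 and 0.0065 with the same scalings and -0.30 to 0.068 without single libraries. Without single libraries Dab2 (0.02) was -0.074 to 0.12 and Gata6 (0.22) -0.0096 to 0.58. The cause of these changes was not tested. With few cells per library and no depth in TPM, a listed 0 may be a missed low transcript.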

Other observations

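Families outside the lists above were counted after their values had been seen, and their counts describe these libraries only. Over all genes tested 3.58% rose and 12.7% fell in VE_ExE. Of 23 imprinted genes tested, 4 rose and 2 fell. Besides Phlda2, Cdkn1c and Mest, the adaptor gene Grb10, which restrains growth factor signals, fell, with 9.43, 6.90 and 2.31 TPM in VE_ExE, against 102 and 108 TPM in VE_Epi (log2 -4.04 ± 0.31, adjusted p = 2.9e-15, and 0.091 in the 5-library fit). The non-coding RNA H19 had 691, 321 and 312 TPM in VE_ExE, against 156 and 190.5 TPM in VE_Epi (log2 1.25 ± 0.36, adjusted p = 0.0091), and Igf2r, a receptor that clears the growth factor IGF2, had 276, 364 and 363 TPM, against 133 and 176 TPM (log2 1.11 ± 0.35, adjusted p = 0.017). The call of H19 was lost without VE_Epi replicate 1 (adjusted p = 0.10) or VE_ExE replicate 1 (0.087), and that of Igf2r without VE_Epi replicate 1 (0.18). In ExE, H19 had 554 and 538 TPM and Igf2r 74.7 and 65.1 TPM. The part of neighbouring tissue in these differences was not tested.

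Of 17 ephrins and Eph receptors, 3 rose and 5 fell in VE_ExE. The ephrin Efnb1 was called in both fits, with 162, 117 and 150.1 TPM in VE_ExE, against 32.5 and 36.1 TPM in VE_Epi (log2 2.02 ± 0.41, adjusted p = 0.00018, and 0.037 in the 5-library fit). Efna5, described above, and Efna4 (0, 0 and 7.98 TPM, against 13.8 and 13.2 TPM) were lower, as was the receptor gene Ephb3, which was listed at 0 in VE_ExE, against 8.13 and 3.53 TPM. Of 17 genes that handle retinoids, 2 rose and 6 fell. Crabp2 rose, while Cyp26a1, an enzyme that degrades retinoic acid, had 244, 126 and 97.5 TPM in VE_ExE, against 1419 and 1313 TPM in VE_Epi (log2 -3.23 ± 0.36, adjusted p = 5.1e-10, and 0.081 in the 5-library fit). Cyp26c1, of the same family, was low in both regions. It was listed at 0 in VE_ExE, where a low transcript may be missed, against 2.43 and 2.81 TPM (adjusted p = 1.1e-06, and 0.0087 in the 5-library fit). Dhrs3, a retinal reductase, had 172, 306 and 358 TPM, against 63.1 and 83.0 TPM (log2 1.87 ± 0.53, adjusted p = 0.0072), and its call was lost without VE_Epi replicate 1 (adjusted p = 0.086).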
